A study of Mus musculus with 18 samples.

Results

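The 8 genes described here encode components of the RAS switch at the level of RNA: the RAS proteins Hras and Nras, the exchange factors Rasgrp4, Rasgrp2 and Sos1, the GTPase-activating proteins Nf1 and Rasa1, and the RAF kinase Braf. They, and the gene lists set beside them, were chosen by name from the 23899 genes of the deposited expression table, with earlier results of these data known. The question the 8 genes address is whether the machinery of the pathway changes, as distinct from its target genes. Of the 8 components, Rasgrp4 was the one that passed the test with guides against Jmjd1c, and it was higher with each of the 4 guides. All 18 libraries came from mouse MLL-AF9 Cas9 leukaemia cells, primary leukaemia cells that carry the fusion oncogene MLL-AF9 and Cas9 and grew in 10 ng/ml mouse interleukin-3. There are 6 groups of 3 libraries: 4 guides aimed at the jumonji and zinc finger domains of Jmjd1c, a gene of the histone demethylase family (e12.3 and e12.4, e20.1 and e21.1), then a guide against Renilla luciferase, which has no target in mouse, and mock. The domain hit by each guide, what mock received, the number of clones or cultures behind a group and the age or strain of the source animal are not stated in the labels, so p-values measure the spread between libraries, which may be technical.

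RAS proteins are small GTPases on the inner face of the plasma membrane that signal while bound to GTP. Guanine nucleotide exchange factors such as SOS1 and the RASGRP family load them with GTP, and GTPase-activating proteins such as neurofibromin and RASA1 switch them off. RAS bound to GTP recruits RAF kinases, which activate MEK and then ERK, and in myeloid cells cytokine receptors including that of interleukin-3 feed into this cascade. The activity of the cascade is set largely by nucleotide loading and phosphorylation, which RNA levels do not measure.

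Depth, estimated from the steps between low FPKM values (fragments counted per kilobase of transcript, scaled for library depth), was 21.4 to 187.4 M reads with a median of 33.0, so that for a 2 kb transcript 1 FPKM equals 43 to 375 reads. Jmjd1c itself ranged from 42.2 to 74.4 FPKM in the guide libraries and from 64.2 to 85.4 FPKM in Renilla, with means of 64.1 and 78.3 FPKM and a log2 fold change of -0.29 that did not pass (limma adjusted p = 0.19). A guide cuts DNA, so the RNA level does not measure loss of the protein. All 13 myeloid and progenitor markers examined had a mean of at least 1 FPKM, and none of the 12 T cell, B cell and erythroid markers did, while of 8 platelet and stromal markers Itga2b and Pdgfrb did. A group's RNA level in bulk cannot tell fewer expressing cells from less RNA per cell.

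Certain libraries stood apart, in these 8 genes and over all tested genes. In a principal component analysis of all tested genes, e12.3 replicate 3 and e21.1 replicate 3 lay at -41.1 and -49.9 on the second axis. All other libraries lay at 0.5 to 13 there. On the third axis Renilla replicate 1 and e20.1 replicate 2 lay at 34.3 and 33.6, and all others at -12.5 to 6.3. In replicate 3 of e12.3 and replicate 3 of e21.1, Nf1 deviated from the other libraries of its group by 0.54 and 0.58 log2 units, Sos1 by 0.45 and 0.39, and Rasa1 by -0.44 and -0.42. In e20.1 replicate 2, Braf deviated by -1.05, Sos1 by -0.58 and Hras by 0.44, and in Renilla replicate 1, Hras deviated by 0.83, Rasgrp4 by -0.51 and Braf by -0.37. The deviation varied with transcript length in several libraries, most in e20.1 replicate 2, and a library's deviation is set against the other libraries of its group. The 1352 tested genes with a coding transcript over 6 kb deviated by a median of -0.36 in e20.1 replicate 2 and -0.12 in Renilla replicate 1, and the 1665 genes under 1.5 kb by 0.37 and 0.27 in the same order. In every other library the genes over 6 kb deviated by -0.09 to 0.19 and those under 1.5 kb by -0.24 to 0.12, with both limits of 0.19 and -0.24 in e20.1 replicate 3. The longest coding transcripts annotated for Braf, Sos1 and Nf1 are 9.73, 8.44 and 11.92 kb, and that of Hras is 2.83 kb. The part of length in the values of these genes was not tested. For most of the 8 genes, changes against Renilla are also given without some or all of these 4 libraries. Marker values and differences between guides are given with all libraries only.

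**Figure D1:**
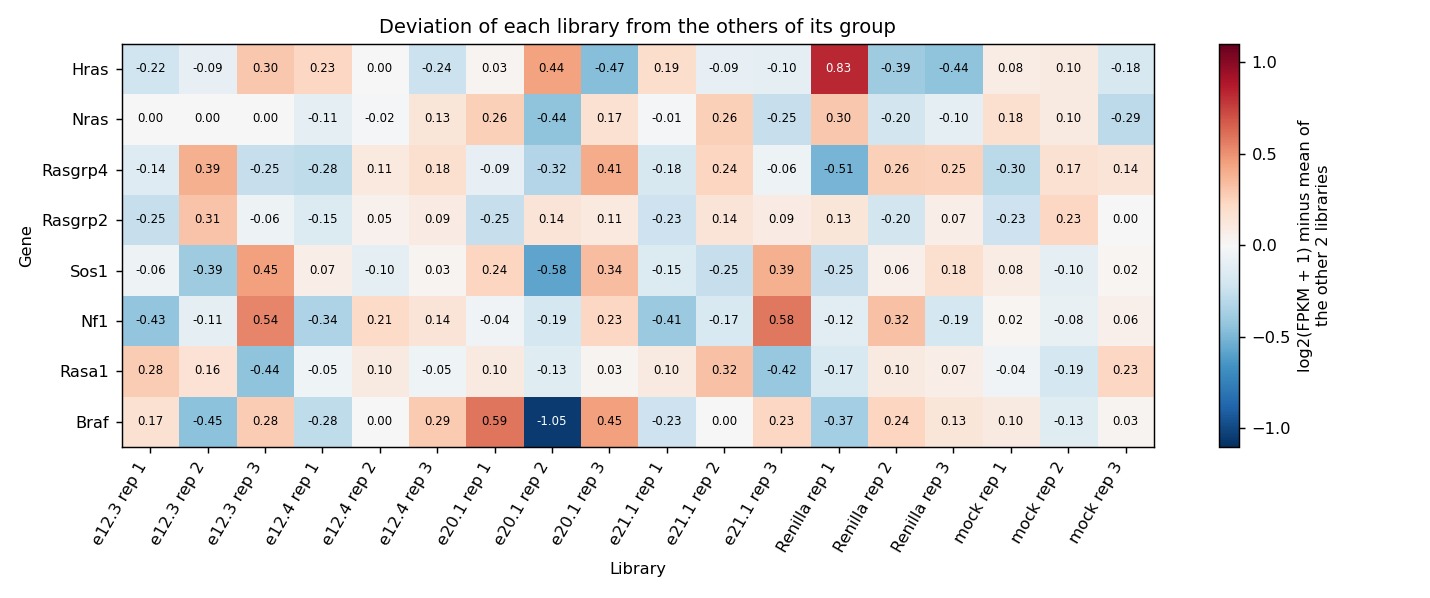
Deviation of log2(FPKM + 1) in each library (columns, by group) from the mean of the other 2 libraries of its group, for the 8 genes (rows); red is higher and blue lower. The strongest cells are Braf at -1.05 in e20.1 replicate 2 and Hras at 0.83 in Renilla replicate 1.

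By FPKM, a level scaled for transcript length, Rasgrp2 was the most abundant of the 8 genes in every group and Nras was next, while Sos1 and Nf1 were the lowest. In the Renilla and mock libraries the order was Rasgrp2, Nras, Hras, Rasa1, Rasgrp4, Braf, Nf1 and Sos1. With the 4 guides together Rasgrp4 stood above Rasa1 and beside Hras, at 36.4 ± 5.36 FPKM against 36.0 ± 4.91 FPKM for Hras (SD, n = 12 each), a gap smaller than the spread of either. Hras stood above Rasgrp4 with e12.3 and e20.1, and Rasgrp4 above Hras with e12.4 and e21.1. Nf1 and Sos1 likewise did not differ beyond their spread, at 5.02 ± 1.18 and 5.17 ± 0.982 FPKM.

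**Figure D2:**
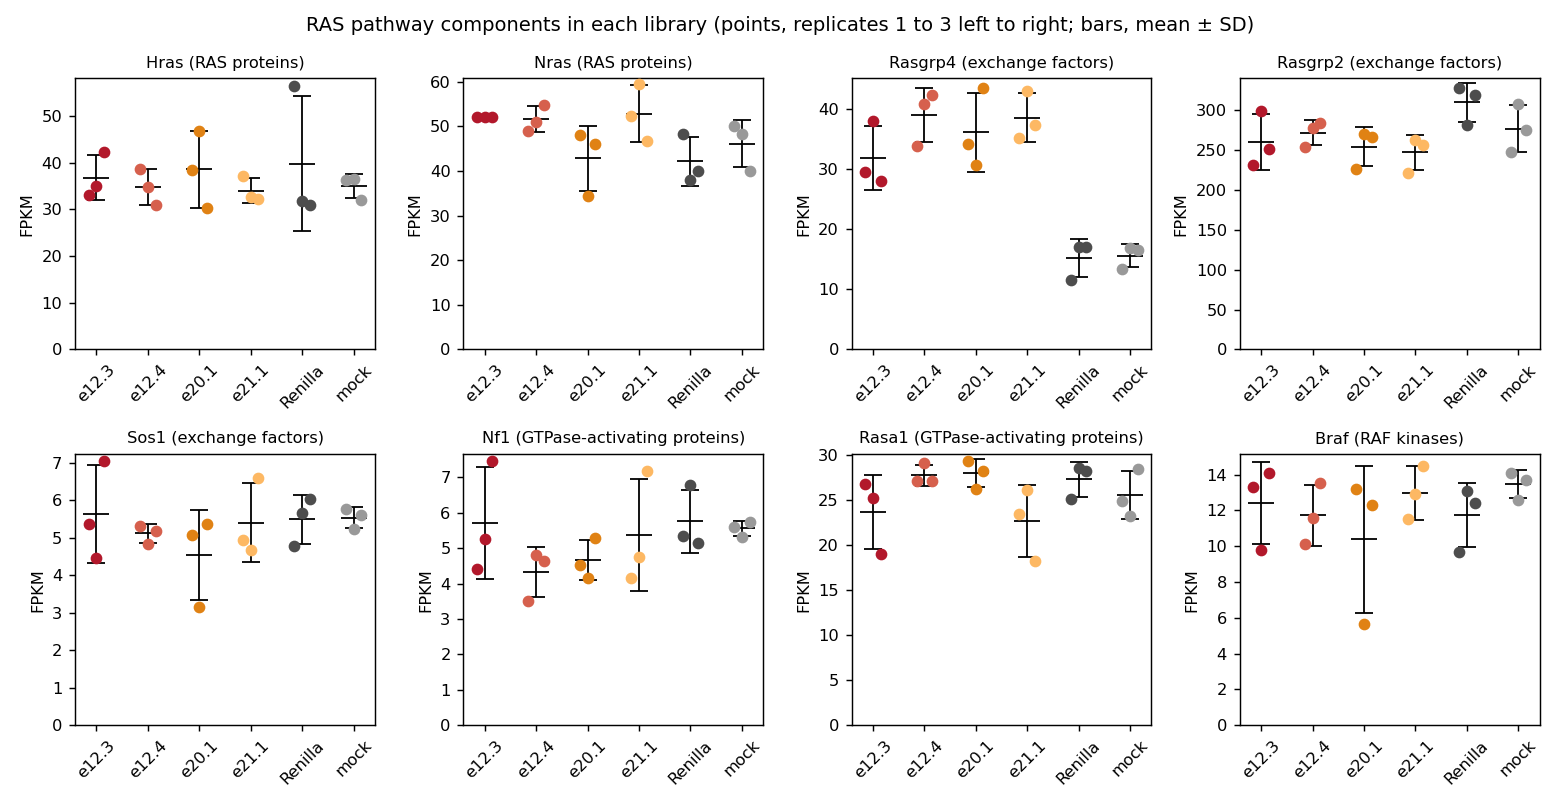
FPKM of the 8 genes (one panel each, linear axis from 0) in the 6 groups; points are single libraries in replicate order and bars the mean ± SD of 3. Rasgrp4 is the panel in which every guide library, 28.0 to 43.5 FPKM, lies above every control library, 11.6 to 17.1 FPKM.

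Rasgrp4 (ENSMUSG00000030589.15, GRCm38 chromosome 7, 29134851-29153961, plus strand) encodes an exchange factor that binds diacylglycerol and is found chiefly in mast cells and other myeloid cells. It measured 29.6, 38.0 and 28.0 FPKM in e12.3 libraries, 33.9, 40.9 and 42.3 FPKM in e12.4 libraries, 34.2, 30.7 and 43.5 FPKM in e20.1 libraries, and 35.2, 43.1 and 37.4 FPKM in e21.1 libraries. In Renilla it was at 11.6, 17.1 and 17 FPKM, and in mock at 13.4, 16.9 and 16.6 FPKM. The 12 guide libraries and the 6 control libraries thus did not overlap, and the lowest guide value was in e12.3 replicate 3. With the 4 guides together Rasgrp4 rose to 36.4 ± 5.36 FPKM (n = 12), against 15.2 ± 3.12 FPKM in Renilla (n = 3), which is 2.39-fold in FPKM.

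On the log2(FPKM + 1) scale of the test the change of Rasgrp4 was 1.21 (SE 0.13, 95% interval 0.93 to 1.49, limma adjusted p = 1.7e-05). An exact two-sided permutation test of these 15 libraries gave p = 0.0022, the smallest that these group sizes allow. It took the 12 guide libraries as alike, whatever their guide. Against mock, with the same guide libraries, the log2 fold change of Rasgrp4 was 1.16 (SE 0.13, limma adjusted p = 2.4e-05). Without the 4 libraries that stood apart it was 1.09 against Renilla (limma adjusted p = 1.1e-04), and without Renilla replicate 1, the lowest library of all, 1.04 (limma adjusted p = 0.00024). Of the genes tested against Renilla, 7.77% were called higher, and 6.26% had all 12 guide libraries above all 3 Renilla libraries; against mock 6.52% did.

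Rasgrp4 rose with each guide alone, against the same 3 Renilla libraries. By guide its mean was 31.8 ± 5.37 FPKM (e12.3), 39 ± 4.46 FPKM (e12.4), 36.2 ± 6.62 FPKM (e20.1) and 38.6 ± 4.07 FPKM (e21.1), each with its SD and n = 3. The log2 fold changes were 1.02, 1.32, 1.20 and 1.30 in that order (limma adjusted p = 0.0021, 1.3e-04, 3.1e-04 and 9.8e-05). With only the e12.3 and Renilla libraries in the fit, the call of e12.3 was lost (limma adjusted p = 0.077). Rasgrp4 did not differ detectably between the guides: e20.1 and e21.1 against e12.3 and e12.4 gave a log2 difference of 0.08 (95% interval -0.17 to 0.33), e12.4 against e12.3 gave 0.29 (-0.06 to 0.65), and e21.1 against e20.1 gave 0.10 (-0.26 to 0.46).

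The gene model of Rasgrp4 overlaps that of Fam98c, which stood at 26 FPKM in the guide libraries and 33.1 FPKM in Renilla (log2 fold change -0.34, limma adjusted p = 0.23). Whether reads were divided rightly between them was not tested. Markers of myeloid cell state moved in both directions in the same libraries. Of the 13 myeloid and progenitor markers, 2 were called higher, Itgam and Ptprc (log2 fold change 0.73 and 0.37), and 4 lower, Mpo, Ms4a3, Ctsg and Prtn3 (-2.09 to -0.58), with a median of -0.01 over the list. Mpo, the myeloperoxidase of granulocyte progenitors, fell by 2.09 log2 units, to 345 ± 262 FPKM with the guides against 1210 ± 152 FPKM in Renilla (limma adjusted p = 8.6e-04). The transcription factor genes Spi1, Cebpa, Hoxa9 and Meis1 were not called, at -0.01 to 0.06. The summed level of the 13 markers was 2540 to 5660 FPKM in the guide libraries and 5190 to 6000 FPKM in Renilla. Of 10 monocyte markers 7 were tested and 4 were called higher, with a median log2 fold change of 1.09 (Ctss, Csf1r, Irf8 and Lyz2), while their summed level was 829 to 1390 FPKM in the guide libraries and 883 to 1010 FPKM in Renilla. Most of that sum was Ly6c2, a surface protein of monocytes, which was not called (log2 fold change -0.25). The mast cell and basophil markers gave no call. The summed level of these 5 markers was 17.2 to 60.2 FPKM in the guide libraries and 75.7 to 101 FPKM in Renilla. Among them 4 were tested and 0 called by limma (median log2 fold change -0.62). The tryptase Tpsab1 was at or near 0 everywhere, listed at 0 in all 12 guide libraries and at 0 to 0.0318 FPKM in Renilla. Hdc, the histidine decarboxylase of mast cells and basophils, was the highest of them, at 9.22 to 46.5 FPKM with the guides and 57.3 to 82.4 FPKM in Renilla (log2 fold change -1.05, limma adjusted p = 0.095). The part of cell state in the Rasgrp4 values was not tested.

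Rasgrp2 (ENSMUSG00000032946.16, GRCm38 chromosome 19, 6399340-6415216, plus strand) encodes a calcium-responsive exchange factor that acts mainly on the RAS relative RAP1 and is known from platelets and neutrophils. It measured 231, 299 and 252 FPKM in e12.3 libraries, 254, 278 and 284 FPKM in e12.4 libraries, 226, 271 and 267 FPKM in e20.1 libraries, and 222, 263 and 257 FPKM in e21.1 libraries. In Renilla it was at 328, 282 and 320 FPKM, and in mock at 248, 308 and 276 FPKM. All 12 guide libraries lay below the Renilla mean, but the ranges of the guide and Renilla libraries overlapped, and the mock values ran across both. Taken singly, e20.1 and e21.1 did not overlap with Renilla, where 11.4% and 11.7% of tested genes were lower without overlap. Rasgrp2 averaged 259 ± 23.5 FPKM with the guides (n = 12) and 310 ± 24.7 FPKM in Renilla (n = 3), 16.6% less.

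The log2 fold change of Rasgrp2 against Renilla was -0.26 (95% interval -0.46 to -0.06), which did not pass over all genes tested (limma adjusted p = 0.088). The exact permutation test of Rasgrp2 alone, 1 of 8 such tests and unadjusted, gave p = 0.0088. Against mock its log2 fold change was -0.10 (95% interval -0.30 to 0.10, limma adjusted p = 0.61). The ratio between these exchange factors did not overlap between guides and controls: Rasgrp2 stood 6.10 to 9.01 times as high as Rasgrp4 in the guide libraries, 16.5 to 28.2 times in Renilla (16.5 to 18.9 without replicate 1) and 16.6 to 18.6 times in mock. Rasgrp4 made up 9.74 to 13.9% of the summed FPKM of Rasgrp2, Rasgrp4 and Sos1 with the guides, 3.38 to 5.60% in Renilla (4.95 to 5.60% without replicate 1) and 5 to 5.58% in mock. Other expressed exchange factors are not in this sum, and the ratio and the share largely restate the Rasgrp4 values.

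Sos1 (ENSMUSG00000024241.7, GRCm38 chromosome 17, 80393751-80480453, minus strand), the exchange factor that the adaptor GRB2 brings to activated receptors, was scarce in all groups. Its guide libraries ranged from 3.16 to 7.04 FPKM with a median of 5.13, and its Renilla libraries were at 4.77, 5.66 and 6.04 FPKM. In mock Sos1 was at 5.78, 5.24 and 5.60 FPKM, within the guide range. The lowest value was in e20.1 replicate 2 and the highest was in e12.3 replicate 3, both among the libraries that stood apart. The log2 fold change of Sos1 was -0.08 (95% interval -0.37 to 0.20, limma adjusted p = 0.76), and -0.19 without those 4 libraries (limma adjusted p = 0.12).

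Of the RAS genes, Nras (ENSMUSG00000027852.14, GRCm38 chromosome 3, 103058285-103067914, plus strand), the RAS isoform most often mutated in human myeloid leukaemia, measured 52.2, 52.0 and 52.0 FPKM in e12.3 libraries, 49.0, 51.0 and 54.9 FPKM in e12.4 libraries, 48.0, 34.5 and 46.1 FPKM in e20.1 libraries, and 52.3, 59.5 and 46.8 FPKM in e21.1 libraries. In Renilla it was at 48.4, 38.0 and 40.0 FPKM, and in mock at 50.1, 48.2 and 40.1 FPKM. The guide libraries of e12.3 and of e12.4 lay above all 3 Renilla libraries, those of e20.1 and e21.1 overlapped them, and the 12 guide libraries together overlapped mock. In e12.3 against Renilla 10.2% of tested genes, and in e12.4 against Renilla 17.1%, were higher without overlap.

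Nras averaged 49.9 ± 6.05 FPKM with the guides (n = 12) and 42.1 ± 5.48 FPKM in Renilla (n = 3), and its log2 fold change of 0.23 did not pass (95% interval 0.01 to 0.45, limma adjusted p = 0.17). The call depended on the pair of libraries Renilla replicate 1 and e20.1 replicate 2: Nras deviated by -0.44 in e20.1 replicate 2 and by 0.30 in Renilla replicate 1. Without both, Nras was called higher, at 0.37 (limma adjusted p = 0.021), and without all 4 libraries that stood apart at 0.39 (limma adjusted p = 0.005). These settings were chosen after the data were seen, and both deviations ran against the rise, so leaving these libraries out was bound to enlarge it. Nras was not called without Renilla replicate 1 alone (0.34, limma adjusted p = 0.11) or without e20.1 replicate 2 alone (0.27, limma adjusted p = 0.056). Against mock the log2 fold change of Nras was 0.11 (95% interval -0.11 to 0.33, limma adjusted p = 0.63).

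Hras (ENSMUSG00000025499.18, GRCm38 chromosome 7, 141189105-141194005, minus strand), the second RAS gene of the set, ranged from 30.3 to 46.9 FPKM in the guide libraries with a median of 34.9. It was at 56.5, 31.8 and 31.0 FPKM in Renilla and at 36.4, 36.6 and 32.1 FPKM in mock. Of the Renilla libraries, replicate 1 was the highest of all 18 libraries, and the other two lay near the low end of the guide range. The log2 fold change of Hras was -0.09 (95% interval -0.42 to 0.23, limma adjusted p = 0.76), and without Renilla replicate 1 its sign turned, to 0.18 (limma adjusted p = 0.50). Nras stood above Hras by mean FPKM in every group, 49.9 against 36.0 FPKM with the guides and 42.1 against 39.8 FPKM in Renilla.

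The GTPase-activating proteins of the set, Nf1 and Rasa1, did not pass the test. Nf1 (ENSMUSG00000020716.16, GRCm38 chromosome 11, 79339693-79581612, plus strand), the tumour suppressor neurofibromin, measured 4.40, 5.25 and 7.46 FPKM in e12.3 libraries, 3.51, 4.82 and 4.64 FPKM in e12.4 libraries, 4.53, 4.17 and 5.29 FPKM in e20.1 libraries, and 4.17, 4.76 and 7.17 FPKM in e21.1 libraries. In Renilla it was at 5.35, 6.78 and 5.14 FPKM, and in mock at 5.61, 5.33 and 5.75 FPKM. The highest values of Nf1 were in the third e12.3 library and the third e21.1 library, and the next guide value was 5.29 FPKM. Nf1 in e12.4 lay below all 3 Renilla libraries, where 16.8% of tested genes were lower without overlap. The log2 fold change was -0.18 (95% interval -0.49 to 0.13, limma adjusted p = 0.49), and -0.28 without those 2 libraries (limma adjusted p = 0.081).

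Evi2a, a gene within an intron of Nf1 that encodes a membrane protein, rose to 30.5 FPKM with the guides, against 18.8 FPKM in Renilla (log2 fold change 0.66, limma adjusted p = 0.00013), and its neighbour Evi2b stood at 108 against 84.0 FPKM (0.40, limma adjusted p = 0.078). Whether reads were divided rightly between Nf1 and these genes was not tested. Rasa1 (ENSMUSG00000021549.14, GRCm38 chromosome 13, 85214780-85289130, minus strand), which binds phosphorylated receptors through its SH2 domains, ranged from 18.3 to 29.4 FPKM in the guide libraries with a median of 26.6. In Renilla it was at 25.1, 28.6 and 28.3 FPKM, and in mock at 24.9, 23.3 and 28.5 FPKM. Its lowest values, 19.0 and 18.3 FPKM, were in the same libraries in which Nf1 was highest. The log2 fold change of Rasa1 was -0.11 (95% interval -0.33 to 0.12, limma adjusted p = 0.59), and -0.04 without those 2 libraries (limma adjusted p = 0.78).

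Braf (ENSMUSG00000002413.15, GRCm38 chromosome 6, 39603237-39725463, minus strand), the RAF kinase with the highest basal activity, ranged from 5.67 to 14.5 FPKM in the guide libraries with a median of 12.6. In Renilla it ranged from 9.70 to 13.1 FPKM, and in mock it was at 14.1, 12.6 and 13.7 FPKM. One guide library, e20.1 replicate 2 at 5.67 FPKM, lay far below the rest, and the other guide libraries spanned 9.79 to 14.5 FPKM, close to the range of the controls. The log2 fold change of Braf was -0.01 (95% interval -0.39 to 0.38, limma adjusted p = 0.99).

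Counted over the 8 components, 1 was called higher and 0 lower by limma with the 4 guides together, where 7.77% of all 11550 tested genes were called higher and 3.21% lower. At an unadjusted p under 0.05 there were 3, Rasgrp4, Rasgrp2 and Nras. With each guide alone against Renilla, Rasgrp4 was again the 1 component called. Of all genes 3.03% were called higher with e12.3, 5.57% using e12.4, 4.61% using e20.1 and 7.06% using e21.1. Those comparisons share the Renilla libraries. The 1268 genes called with the 4 guides together became 815 without Renilla replicate 1 and 834 without Renilla replicate 2, and Rasgrp4 remained called in both. Against mock, Rasgrp4 was the 1 of 8 called, where 6.84% of genes were called higher. The median log2 fold change of the 8 components against Renilla was -0.09, beside -0.03 over all tested genes.

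No component was called between groups of guides or between the controls. In e20.1 and e21.1 against e12.3 and e12.4, in e12.4 against e12.3, in e21.1 against e20.1 and in Renilla against mock, limma called 0 of 8 components and 0% of all genes. At an unadjusted p under 0.05 the counts were 0, 0, 2 and 0 of 8 components. The 2 in e21.1 against e20.1 were Nras, at 52.9 ± 6.34 against 42.9 ± 7.29 FPKM (log2 difference 0.30, 95% interval 0.03 to 0.58), and Rasa1, at 22.6 ± 4.01 against 28.0 ± 1.59 FPKM (-0.31, -0.60 to -0.02). Both leaned on libraries that stood apart. Nras was at 34.5 FPKM in e20.1 replicate 2, against 48 and 46.1 FPKM in the other e20.1 libraries. Rasa1 was at 18.3 FPKM in e21.1 replicate 3, against 23.5 and 26.2 FPKM in the other e21.1 libraries.

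**Figure D3:**
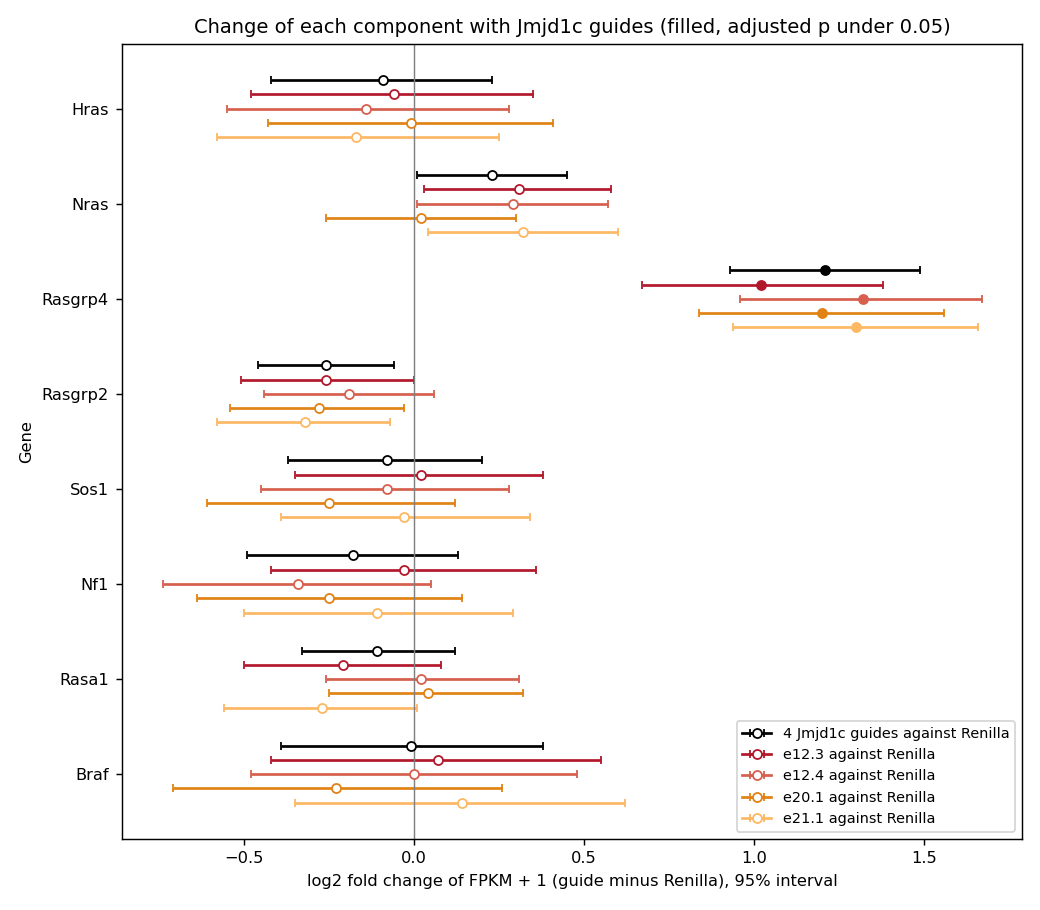
Log2 fold change of FPKM + 1 against Renilla (horizontal axis) for the 8 genes, with 95% intervals, for the 4 guides together (black) and each guide (colours); filled points have a limma adjusted p under 0.05. The filled points are those of Rasgrp4, at 1.21 for the 4 guides together and 1.02 to 1.32 for single guides.

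Beyond these 8 genes, a list of 47 further RAS pathway genes was examined, 37 of which passed the filter on low values. With the 4 guides 8 of the 37 were called higher and 2 lower, beside 7.77% and 3.21% of all genes, and their median log2 fold change was 0.07. The filter took the mean over all 18 libraries, 12 of them guide libraries, so it leaned towards genes higher with the guides. Without the filter 7 of the 47 were called higher and 3 lower. Rgl1, an exchange factor for RAL that binds RAS, stood at 1.06 to 5.26 FPKM in the guide libraries and 0.186 to 0.252 FPKM in Renilla, and rose by 1.81 log2 units (limma adjusted p = 4.1e-06). Rgl1 averaged 0.223 FPKM in Renilla and 0.214 FPKM in mock, so it passed the filter on low values only through the guide libraries. Rras, a RAS-related GTPase of adhesion, rose to 9.03 ± 2.59 FPKM, against 3.95 ± 0.706 FPKM in Renilla (0.99, limma adjusted p = 5.0e-04). Rassf5, a RAS and RAP effector of leukocytes, rose to 32.6 ± 2.41 FPKM, against 19.5 ± 2.79 FPKM (0.72, limma adjusted p = 1.6e-05). For each of these 3 genes every guide library lay above every Renilla library, as for 6.26% of all tested genes.

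Among other regulators and kinases of the pathway, calls went in both directions. Rasal3, a GTPase-activating protein of blood cells, rose to 22.5 ± 3.10 FPKM, against 13.7 ± 1.05 FPKM in Renilla (0.67, limma adjusted p = 7.8e-05), and Rasa3 to 44.9 against 38.5 FPKM (0.21, limma adjusted p = 0.041). Rasa2, of the same class, fell to 14.3 ± 3.39 FPKM, against 22.6 ± 1.23 FPKM (-0.65, limma adjusted p = 0.013). The scaffold Ksr1, which brings RAF and MEK together, rose to 7.89 ± 1.85 FPKM, against 3.94 ± 0.553 FPKM (0.83, limma adjusted p = 0.0015). Mapk3, the kinase ERK1, rose to 64.2 ± 18.4 FPKM, against 39.3 ± 2.65 FPKM (0.65, limma adjusted p = 0.017).

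The RAS relatives Rras2 and Mras averaged under 1 FPKM and were not tested. The MEK kinases Map2k1 and Map2k2 were not called, at 0.26 and -0.25 (limma adjusted p = 0.11 and 0.21). The remaining calls were Pik3cd, a catalytic subunit of PI3 kinase in leukocytes, at 0.38 (limma adjusted p = 0.035), and Ptpn11, the phosphatase SHP2 that acts upstream of RAS, at -0.27 (limma adjusted p = 0.031). Several of these calls were lost when a single Renilla library was left out, at similar log2 fold changes. Mapk3 lost its call without Renilla replicate 1 (0.64, limma adjusted p = 0.077) or replicate 3 (0.62, limma adjusted p = 0.075). Rasa2 lost its call without Renilla replicate 2 (-0.63, limma adjusted p = 0.064) or replicate 3 (-0.63, limma adjusted p = 0.058). Without any one of the 3 Renilla libraries, Rasa3 (0.18 to 0.25), Pik3cd (0.35 to 0.44) and Ptpn11 (-0.30 to -0.25) lost theirs (limma adjusted p of 0.053 to 0.19). They also lost it without single guide libraries (0.051 to 0.07): Ptpn11 without e12.4 replicate 3, Pik3cd without e12.4 replicate 1 or 3 or e20.1 replicate 1, and Rasa3 without those 3, e12.3 replicate 1, e20.1 replicate 3, e21.1 replicate 1 or e21.1 replicate 2. The total of 10 called genes was 6 without any one of the 3 Renilla libraries and 12 without the 4 libraries that stood apart.

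The target side of the pathway was read from 20 genes induced by RAS and ERK signalling, of which 13 were tested. Of these 6 were called higher and 0 lower by limma, with a median log2 fold change of 0.46, beside 7.77% and 3.21% called and a median of -0.03 over all tested genes. The immediate-early transcription factor gene Egr1 rose to 8.67 ± 4.03 FPKM, against 0.567 ± 0.201 FPKM in Renilla (2.53, limma adjusted p = 4.8e-07), and Fos to 12.2 ± 7.42 against 2.01 ± 0.621 FPKM (2.03, limma adjusted p = 1.2e-04). Egr1 was also low in mock, at a mean of 0.341 FPKM, so it passed the filter on low values only through the guide libraries. Without that filter 6 of the 20 target genes were called higher and 0 lower. Ier3, Dusp5, Dusp6 and Junb were also called higher, at 1.48, 1.12, 0.92 and 0.46. Dusp5 and Dusp6 encode phosphatases that act on ERK, and other feedback genes, Spry2, Spred1 and Spred2, stood at 0 to 0.02. Dusp6 lost its call without Renilla replicate 2 (limma adjusted p = 0.14) or replicate 3 (0.13), and Junb without any one of the Renilla libraries (limma adjusted p of 0.072 to 0.13).

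**Figure D4:**
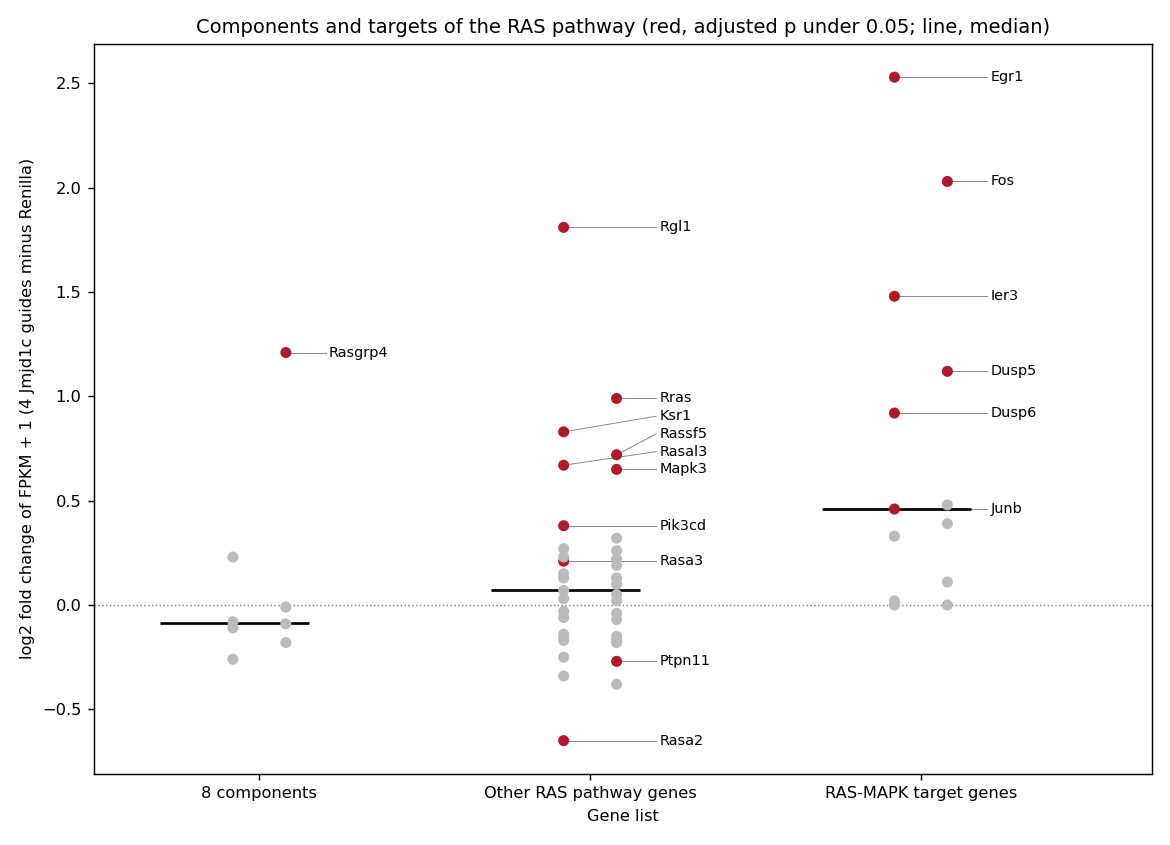
Log2 fold change of FPKM + 1, 4 guides minus Renilla (vertical axis), for each tested gene (points) of the 8 components, the other RAS pathway genes and the target genes; red points have a limma adjusted p under 0.05 and black lines are medians. The 8 components centre on -0.09 with Rasgrp4 at 1.21, and the 13 target genes on 0.46.

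The genes most like Rasgrp4 and Rasgrp2 in pattern were sought over all 18 libraries, by Pearson's r of log2(FPKM + 1) among the 9093 genes that averaged 5 FPKM or more. For Rasgrp4 they were Ptk2b, Lilrb4a and Sbno2, with r of 0.99, 0.98 and 0.98, and of 0.87, 0.84 and 0.94 after the group means were removed. Ptk2b, the calcium-responsive tyrosine kinase PYK2, was at 36.4 FPKM with the guides and 21.8 FPKM in Renilla, and Lilrb4a, an inhibitory receptor of myeloid cells, at 140 and 22.8 FPKM. For Rasgrp2 they were Dcaf15, Keap1 and Ppp2r3d, with r of 0.88, 0.88 and 0.86. Ppp2r3d, a regulatory subunit of the phosphatase PP2A, was called lower, at 76.8 FPKM with the guides and 104 FPKM in Renilla (-0.44, limma adjusted p = 0.0077). The libraries share their group and their depth, and these correlations are descriptions.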

How the data were processed

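RNA of 18 libraries was extracted with TRIzol and made into poly(A)-selected, strand-marking NEBNext libraries, per the labels' protocols. The authors deposited FPKM per gene symbol for 23899 genes. The submitters' processing notes name the build mm10, bcl2fastq 2.22.0.422, Salmon 0.13.0, R 3.5.3 and DESeq2 1.22.1 with no roles, and how FPKM was scaled for depth is not given in the sources used here. If size factors set it, the estimated depths are relative only. Depth came from 418 single-transcript genes no shorter than 4000 bases, in which 97.3 to 100.0% of low values lay within 0.15 reads of a whole number (30% for an even spread). The intervals given for tests cover the spread between libraries.

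Values were tested with limma 3.58.1 (R 4.3.3, trend, no covariates, 6 group means over all 18 libraries) on log2(FPKM + 1), for the 11550 genes that averaged 1 FPKM or more. All 8 components passed this filter. P-values were adjusted by Benjamini-Hochberg over all tested genes, and an adjusted p under 0.05 is a call. The scale understates changes of low genes. Positions are from GENCODE vM21. Whether replicate numbers pair libraries was not settled, and the main fit did not use them. The alternatives were a pseudocount of 0.1, other filters, upper-quartile scaling, array quality weights, a replicate block, other controls, fewer groups and libraries or guides left out.

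The components and lists were chosen with earlier results of these data known. All 8 components are named, with up to 6 called genes of each list and direction, the RAS, RAF, MEK and ERK genes of the pathway list, and the 3 genes most like the 2 components with the smallest p. Rasa3, Pik3cd and the marker genes were named after their values were seen, and the mast cell and monocyte lists were added then. Some genes of the pathway list are counted but not reported here by name.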

Additional observations from a re-analysis of the deposited data

How the results depend on the processing

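Rasgrp4 kept its direction and its call against Renilla, for the 4 guides together, in all 30 alternatives, with log2 fold changes of 1.04 to 1.30 and limma adjusted p of 1.8e-08 to 0.00024. For single guides it lost the call once, with e12.3 when the fit held only the groups compared (1.02, limma adjusted p = 0.077), so that 0 components were called there. Of 249 alternative values of 12 counts, 229 stayed within 1.5 times the value reported and 20 did not. With array quality weights, which down-weight variable libraries, limma called 4864 genes (2433 higher, 2431 lower) in place of 1268 (897 higher, 371 lower). The components called were then 4 with the 4 guides (Nras and Rasgrp4 higher, Nf1 and Rasgrp2 lower), 3 with e12.3, 3 with e12.4, 4 with e20.1, 3 with e21.1 and 2 against mock, and the other RAS pathway genes called were 22.

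With the replicate number as a block, 2 components were called with the 4 guides and 2 with e21.1, as Rasgrp2 joined Rasgrp4 (-0.26, limma adjusted p = 0.035, 4 guides), and 1809 genes were called in all. Of 45 same-numbered pairs of libraries 26 correlated above 0.1 (-0.25 to 0.76). Differently numbered pairs were not compared, so this does not settle whether the numbers pair libraries. Alternatives chosen after seeing the data left out libraries that stood apart. Without Renilla replicate 1 and e20.1 replicate 2 there were 2 components called with the 4 guides, 2 with e12.4 and 2 with e21.1, and without all 4 libraries 2 each with the 4 guides, e12.3, e12.4 and e21.1, with Nras the one that joined. Leaving out 1 library at a time gave 6 to 11 other RAS pathway genes.

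Hras, not called, turned sign with array quality weights (0.11), without Renilla replicate 1 (0.18), without that and e20.1 replicate 2 (0.14) and without all 4 libraries (0.13), with a range of -0.24 to 0.18 over libraries left out in turn. Braf, not called at -0.01, turned sign with upper-quartile scaling (0.01), without guide e20.1 (0.07) and without 1 library in 6 cases, at values of 0.01, 0.02, 0.03, 0.04, 0.07 and 0.08 (-0.13 to 0.08 over libraries left out in turn). The causes were not tested. Small changes are limited by the 3 Renilla libraries: the 95% intervals of the 7 components not called span 0.40 to 0.77 log2 units.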
